A study of Mus musculus with 15 samples.

Results

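The mitochondrial genome is a small circular DNA that is copied and transcribed inside the organelle. Both of its strands are transcribed as long precursors, and the tRNAs that lie between the other genes are cut out to release the mRNAs and rRNAs. Its mRNAs encode core subunits of complexes I, III, IV and V of oxidative phosphorylation, its rRNAs build the mitochondrial ribosome, and its tRNAs serve translation there. The beating heart draws nearly all of its ATP from this system, and complex II is made by nuclear genes alone. The mitochondrially encoded genes were taken as all rows of the deposited gene table that lie on chromosome MT, 37 of 54532 rows, with 13 protein-coding, 2 rRNA and 22 tRNA genes by annotated biotype. The rule uses the chromosome and biotype of a row and no level.

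The RNA came from hearts of wild-type (WT) C57BL/6 mice, with an age given as 8 to 10 weeks, whose left ventricle worked against a surgically narrowed aortic arch (transverse aortic constriction, TAC). Treatment began 4 weeks after the operation, when 15 mice were allotted at random to each group, and was given in the drinking water as physiological saline, the acetylcholinesterase inhibitor donepezil at 5 mg/kg/day or encenicline (EVP-6124), an agonist of the α7 nicotinic receptor, at 2 mg/kg/day. The hearts carry the label TAC 8Weeks, all groups share the constriction, and no unoperated heart was analysed here. If that label counts weeks since the operation, the given age is not the age at which the hearts were taken. The design asks which of raising acetylcholine or activating the receptor does more in heart failure, with 5 libraries per group and 15 in all. Groups follow the library titles, and for donepezil 1 and encenicline 1 the treatment field names another group (saline and donepezil). The labels do not say that each library is 1 mouse, so the p-values measure the spread between these libraries, which may be technical in part.

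Reads were recovered as whole numbers from FPKM (fragments per kilobase of gene, scaled per library) and gene length, 14496147 to 17176086 per library. Cardiomyocyte markers summed to 17107 to 28656 FPKM over 11 genes and fibroblast markers to 148 to 979 FPKM over 8 genes. Donepezil 4 stood apart, with the lowest cardiomyocyte sum (17107 FPKM) and the highest sums of fibroblast (979), macrophage (541) and atrial markers (859). How the library was made from total RNA (selection of polyadenylated RNA or removal of rRNA), the strand of counting and the treatment of reads that match several places are not given in the sources used here.

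Sequences are shown for the tRNA rows at the ends of the range of levels and for the places where a nuclear copy can be told from its mitochondrial gene. They are from the GENCODE vM21 transcripts (GRCm38), written 5′ to 3′ in the sense of the gene, with T for U. The tRNAs for cysteine (mt-Tc, MT:5192-5257), proline (mt-Tp, MT:15356-15422) and glutamate (mt-Te, MT:14071-14139), all annotated on the minus strand, had the highest tRNA levels. The tRNA for histidine (mt-Th, MT:11546-11612, plus strand) had a level that split the libraries across the groups, and the tRNA for phenylalanine (mt-Tf, MT:1-68, plus strand) had no read. Capitals mark the anticodon.
mt-Tc: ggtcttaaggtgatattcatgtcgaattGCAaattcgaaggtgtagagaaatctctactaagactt
mt-Tp: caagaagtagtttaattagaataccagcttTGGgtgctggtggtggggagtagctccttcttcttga
mt-Te: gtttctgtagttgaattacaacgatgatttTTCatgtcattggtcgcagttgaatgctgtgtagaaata
mt-Th: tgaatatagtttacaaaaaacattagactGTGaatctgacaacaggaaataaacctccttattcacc
mt-Tf: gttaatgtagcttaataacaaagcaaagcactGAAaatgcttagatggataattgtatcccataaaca

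The nuclear genome holds copies of mitochondrial DNA, and 7 annotated rows on the minus strand of chromosome 1, between positions 24611535 and 24616197, carry a series of them. Of these, Gm28439 (chr1:24611535-24612410), Gm10222 (chr1:24612407-24612700), Gm28437 (chr1:24613189-24613971), Gm10925 (chr1:24613974-24614651) and Gm28661 (chr1:24614885-24615565) match mt-Nd4, mt-Nd4l, mt-Co3, mt-Atp6 and mt-Co2 with 0 differences over their 876, 294, 783, 678 and 681 aligned bases. Gm28438 differs from mt-Nd3 at 1 of 345 bases, T3C, and Gm29216 differs from mt-Co1 at 1 of 483 bases, A1066T. In these tokens the base of the mitochondrial gene stands first, then the position counted from 1 at that gene's first base, then the base of the copy. The first 60 bases of mt-Nd3 (MT:9459-9518) and of Gm28438 (chr1:24613060-24613119, minus strand) and bases 1063 to 1122 of mt-Co1 (MT:6390-6449) with bases 10 to 69 of Gm29216 (chr1:24616129-24616188, minus strand) follow, with the differing base in capitals.
mt-Nd3: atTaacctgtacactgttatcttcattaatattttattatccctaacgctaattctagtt
Gm28438: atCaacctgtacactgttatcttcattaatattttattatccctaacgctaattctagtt
mt-Co1: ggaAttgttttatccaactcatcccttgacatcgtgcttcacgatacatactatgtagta
Gm29216: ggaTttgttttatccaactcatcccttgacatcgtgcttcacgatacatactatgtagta
A stretch of 100 bases is a rough stand-in for a sequenced fragment. Of all such stretches, 99.5% of mt-Co2, 99.5% of mt-Atp6, 99.9% of mt-Co3, 98.5% of mt-Nd4l and 97.6% of mt-Nd3 also occur in another annotated transcript. The share was 60.8% in mt-Nd4, 30.8% in mt-Co1, 3.19% in mt-Nd2 and 0 in mt-Nd1, mt-Nd5, mt-Nd6, mt-Cytb, mt-Atp8 and both rRNAs. Levels of the first 5 genes are therefore uncertain, because the counting could have split or dropped their reads. The search covered annotated transcripts only and not the bases between the copies on chromosome 1. mt-Atp8 and the tRNA genes between mt-Co1 and mt-Nd4 have neighbours with such copies. Whether they are also copied there was not tested, so their levels are uncertain too.

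Mitochondrially encoded genes took 17.4 to 27.0% of the reads of a library, and nearly all of these were mRNA. By library, the share was 22.5, 22.0, 20.9, 23.7 and 19.5% in saline libraries 1 to 5, 23.2, 26.2, 23.8, 17.4 and 25.0% in donepezil libraries 1 to 5 and 27.0, 22.9, 21.8, 22.8 and 24.6% in encenicline libraries 1 to 5. Donepezil 4 was lowest, encenicline 1 was highest, and the groups overlapped. The 13 mRNAs alone gave 20.8 ± 1.74% of reads in the saline group, 22.2 ± 3.20% in the donepezil group and 22.7 ± 2.05% in the encenicline group (mean ± SD, n = 5 each). The 2 rRNAs gave 0.823 ± 0.263%, 0.886 ± 0.217% and 0.991 ± 0.119% in the same order. The 22 tRNAs gave 0.0768 ± 0.0209%, 0.0974 ± 0.0183% and 0.0996 ± 0.00638%. Counting error is far below this spread, since the widest 95% exact binomial interval of a library's total share spanned 0.0457 percentage points. Per length the mitochondrial part is larger, and the same rows held 36.1 to 48.6% of summed FPKM. In RNA from whole tissue, fewer cardiomyocytes and less mitochondrial RNA per cell cannot be told apart.

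**Figure D1:**
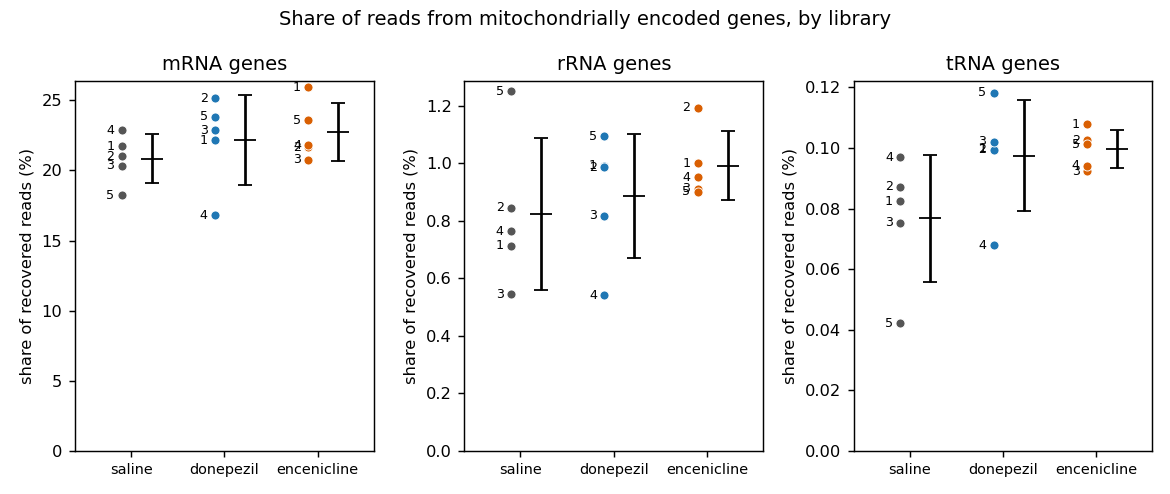
Share of recovered reads (%, from 0) that came from the mitochondrially encoded mRNA, rRNA and tRNA genes. Each point is a library with its number, and the bar beside each group is the mean ± SD (n = 5). Donepezil 4 is low in all 3 panels, and saline 5 is lowest for tRNA (0.0421%) and highest for rRNA (1.25%).

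Between groups, none of 8 summary measures passed (the shares of all mitochondrial, mRNA, rRNA and tRNA reads, and 4 log2 ratios between classes or genes), with 24 exact two-sided permutation tests (3 comparisons, 5 against 5 libraries, smallest possible p = 0.00794) and Benjamini-Hochberg adjustment over the 24. The total share was 1.41 percentage points higher with donepezil than with saline (SE 1.68, exact permutation p = 0.413, adjusted p = 0.690). With encenicline it was 2.10 points above saline (SE 1.16, exact permutation p = 0.103, adjusted p = 0.435) and 0.684 points above donepezil (SE 1.78, exact permutation p = 0.762, adjusted p = 0.962). Single libraries moved these differences. Donepezil minus saline was 2.84 points without donepezil 4 (exact permutation p = 0.0317, adjusted p = 0.152), 0.638 without donepezil 2 and 0.858 without saline 5. Encenicline minus saline was 1.296 points without encenicline 1 and 1.05 with the groups of the treatment field. Encenicline minus donepezil changed sign, to -0.748 points without donepezil 4 and -0.117 without encenicline 1, and was 1.46, 1.15 and 1.20 points without donepezil 2, donepezil 5 and encenicline 3, and -0.876 with the groups of the treatment field.

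The tRNA class lay nearest to a difference. Its share of reads was 0.0824, 0.0871, 0.0754, 0.0969 and 0.0421% in saline 1 to 5 and 0.108, 0.103, 0.0923, 0.0941 and 0.101% in encenicline 1 to 5, with only saline 4 inside the encenicline range. The difference was 0.0228 points (SE 0.00978, exact permutation p = 0.0238, adjusted p = 0.286), which did not pass, and 0.0142 points without saline 5 (exact permutation p = 0.0476, adjusted p = 0.286). Relative to mitochondrial mRNA in the same library, where library scaling drops out, tRNA reads were 0.30 higher on the log2 scale with encenicline than with saline (SE 0.16, exact permutation p = 0.0159, adjusted p = 0.286). Without saline 5 the difference was smaller, at 0.15 on the log2 scale (exact permutation p = 0.0317, adjusted p = 0.286). Donepezil stood 0.30 above saline by the same ratio (SE 0.17, exact permutation p = 0.0556, adjusted p = 0.429), and 0.14 above it without saline 5 (exact permutation p = 0.111, adjusted p = 0.444). The remaining ratios, rRNA to mRNA, mt-Rnr2 to mt-Rnr1 and mt-Nd6 to the other mRNAs, had adjusted p from 0.429 to 0.992.

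Among the mRNAs, the order of the most abundant ones, per length, was the same in 14 or 15 of the 15 libraries. mt-Co1, the catalytic subunit of cytochrome c oxidase (complex IV), was highest, at a mean of 61868 FPKM. It stood at 62175, 57668, 53505, 63751 and 43764 FPKM in saline 1 to 5, at 66313, 74756, 67461, 41060.0 and 69733 in donepezil 1 to 5 and at 77072, 64543, 56556, 61216 and 68442 in encenicline 1 to 5. Donepezil 4 and saline 5 were the lowest, encenicline 1 the highest, and the groups overlapped. mt-Cytb, the cytochrome b of complex III, followed at a mean of 32487 FPKM (range 21795 to 42000.5). Of the complex I subunits, all of its membrane arm, mt-Nd1 had 25431 FPKM, mt-Nd2 14313, mt-Nd4 12954 and mt-Nd5 9079 on average. mt-Co1 exceeded mt-Cytb, mt-Cytb exceeded mt-Nd1 and mt-Nd1 exceeded mt-Nd2 in 15 of 15 libraries each, and mt-Nd2 exceeded mt-Nd4 in 14 of 15. mt-Nd6, the mRNA on the light strand, had a mean of 9631 FPKM and was above mt-Nd5 in only 6 of 15, so their order is not resolved. Without stranded counting, reads in mt-Nd6 cannot be told from the antisense precursor of the other strand.

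The 5 mRNAs that an annotated nuclear copy covers almost fully were the lowest but for mt-Atp8. mt-Co3 and mt-Co2, the other core subunits of complex IV, had means of 3851 and 3289 FPKM, and mt-Atp6, of the proton channel of ATP synthase (complex V), had 3379. Of the small complex I subunits, mt-Nd4l had 1487 and mt-Nd3 607 FPKM. mt-Co1 was thus 472 times mt-Atp8 (131 FPKM), the other ATP synthase subunit. The last 60 bases of mt-Atp8 (MT:7910-7969) carry, in capitals, the 43 bases shared with mt-Atp6, so the levels of this pair also depend on how reads in an overlap were counted, which is not given.
mt-Atp8: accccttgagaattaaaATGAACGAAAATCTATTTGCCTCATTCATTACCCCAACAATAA
In total, 9 pairs of neighbouring mitochondrial rows overlap, by 1 to 43 bases. Both rRNAs lay in the range of the lower mRNAs. mt-Rnr2, the large-subunit rRNA, stood at 3234, 3611, 2269, 3361 and 5577 FPKM in saline 1 to 5, 4571, 4895, 3814, 2179 and 5351 in donepezil 1 to 5 and 4925, 5747, 4148, 4372 and 4205 in encenicline 1 to 5. Saline 3 and donepezil 4 were low, and saline 5 and encenicline 2 high. mt-Rnr1, the small-subunit rRNA, had 1295 to 3498 FPKM, and mt-Rnr2 was 1.60 times as high on average. The part of the unstated selection step in the rRNA levels was not tested.

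**Figure D2:**
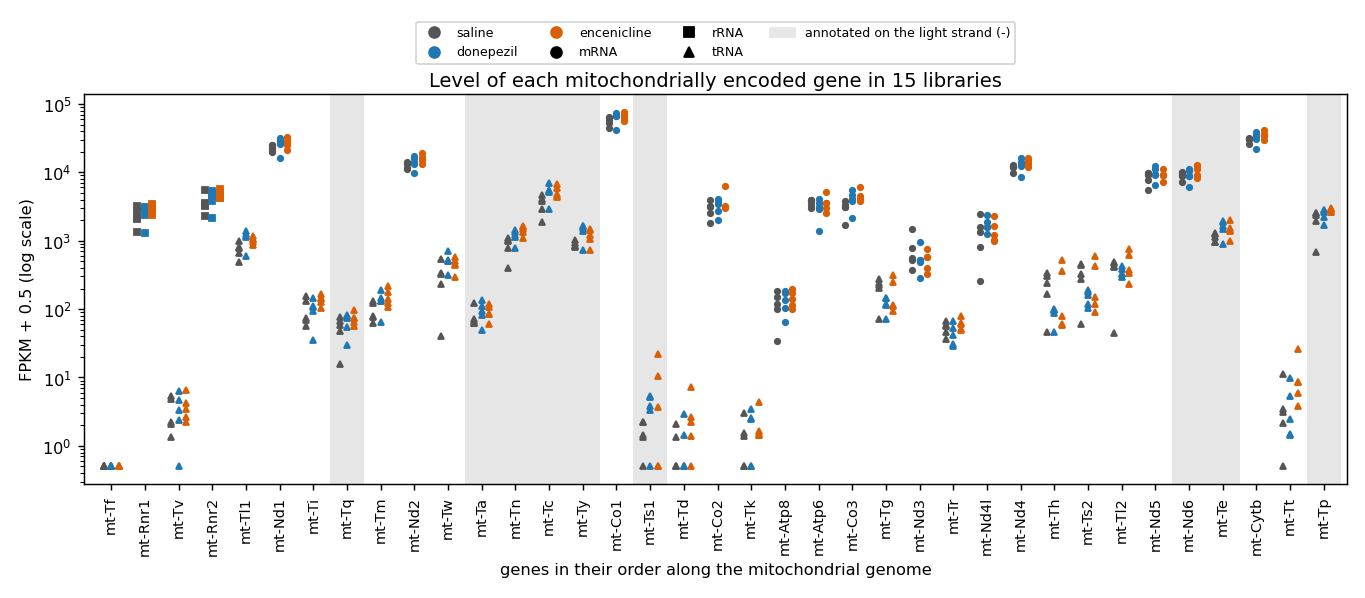
FPKM + 0.5 (log scale) of the 37 mitochondrially encoded genes in their order along the genome. Each symbol is 1 library, coloured by group, with circles for mRNA, squares for rRNA and triangles for tRNA, and grey bands mark genes annotated on the light strand. mt-Co1 is the top gene, and mt-Tf lies at 0 FPKM in all 15 libraries.

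The tRNA rows spanned more than the mRNAs, from 0 to 4621 FPKM on average. The 6 with most reads were mt-Tc (4621 FPKM), mt-Tp (2409), mt-Te (1383), mt-Tn (1156), mt-Ty (1152) and mt-Tl1 (957), the tRNAs for cysteine, proline, glutamate, asparagine, tyrosine and a leucine. All but mt-Tl1 are annotated on the light strand. The 8 light-strand tRNAs had a median of 1154 FPKM and 73.9 to 84.8% of the tRNA reads of a library, against a median of 118 FPKM for the 14 heavy-strand tRNAs. As for mt-Nd6, reads of heavy-strand RNA that runs antisense through these genes could not be told apart from the tRNAs, and a mature tRNA is shorter than the inserts most RNA libraries keep. mt-Ts1, mt-Tv, mt-Tk and mt-Td were near 0, with means of 1.16 to 3.73 FPKM, and mt-Tt had 5.79. Of these, mt-Ts1, mt-Td and mt-Tk lie between mt-Co1 and mt-Atp6, which have copies on chromosome 1. Whether unannotated copies there lowered the counts of these tRNA genes was not tested. mt-Tf, the first gene of the heavy-strand transcript, had 0 reads in all 15 libraries, which allows up to 3 reads or 2.43 to 3.29 FPKM per library.

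Relative to the mitochondrial mRNA reads of a library, the abundant mRNAs were nearly constant and the other genes varied more. Of the mRNA reads of a library, complex I genes held 34.6 to 37.1%, mt-Cytb 15.8 to 20.0%, complex IV genes 41.5 to 48.3% and complex V genes 0.659 to 1.52%. Scaled to the mitochondrial mRNA reads of its library, mt-Nd1 had an SD of 0.0564 and mt-Co1 of 0.0571 on the log2 scale over 15 libraries. Each mRNA is part of the total it was scaled to, and mt-Co1 alone made up 38.9 to 45.9% of it. A small SD of the abundant mRNAs is therefore partly fixed by the scaling. The median SD was 0.12 over the 6 mRNAs with little or no sequence in other annotated transcripts, mt-Atp8 among them. It was 0.39 over the 5 with over 90% and 0.41 over the 16 tRNAs with reads in every library. Within the 6, mt-Atp8, with the fewest reads, had 0.54.

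Saline 5 and encenicline 4 departed most from this pattern, with mean absolute deviations from the median library of 0.73 and 0.44 on the log2 scale over 31 genes, against 0.09 to 0.42 in the other 13. Saline 3, at 0.42, was close to encenicline 4. Over the 13 mRNAs alone the deviation was 0.45 in saline 5 and 0.35 in saline 3 but 0.18 in encenicline 4, inside the range of the other libraries. mt-Co1 made up 38.9% and 41.8% of their mitochondrial mRNA reads, against 42.5 to 45.9% in the other 13. mt-Nd5 made up 5.85% and 5.82%, against 6.77 to 8.38%, and mt-Nd4 10.1% and 9.09%, against 7.30 to 8.34%. Saline 5 was also the lowest library for mt-Tc, mt-Tn, mt-Tp, mt-Tq, mt-Tw, mt-Tl2, mt-Nd4l and mt-Atp8. In that library mt-Tw, the tryptophan tRNA, had 40.2 FPKM against 233 to 697 in the other 14. Its mt-Tp had 676 FPKM against 1698 to 2973, while its rRNA share was the highest. The part of RNA quality in this was not tested, and the read total of saline 5 (15967662) lay within the range of the others.

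The heavy-strand tRNAs mt-Th, mt-Ts2 and mt-Tg divided the libraries across the treatment groups. mt-Th and mt-Ts2, the tRNAs for histidine and a serine, lie side by side between mt-Nd4 and mt-Nd5, and mt-Tg, for glycine, lies between mt-Co3 and mt-Nd3. mt-Th stood at 334, 309, 239, 163 and 46.4 FPKM in saline 1 to 5, at 98.3, 96.1, 87.6, 45.6 and 97.2 in donepezil 1 to 5 and at 59.0, 79.7, 60.9, 521 and 356 in encenicline 1 to 5. It was high in saline 1 to 4 and encenicline 4 and 5 and low in the other 9, all donepezil libraries among them. mt-Ts2 split the same libraries, with 438, 452, 324, 279 and 60.8 FPKM in saline, 163, 192, 119.6, 102 and 179 in donepezil and 91.0, 151, 118, 589 and 425 in encenicline 1 to 5. mt-Tg did so too, at 204 to 318 FPKM in those 6 libraries and 71.3 to 146 in the other 9. mt-Tl2, the leucine tRNA next to mt-Ts2, did not split them, with 475, 421, 414, 490.2 and 44.7 FPKM in saline 1 to 5, 299, 429, 328, 324 and 387 in donepezil 1 to 5 and 229, 376, 333, 752 and 627 in encenicline 1 to 5, where donepezil 2 lay above saline 2 and 3. The 6 libraries were singled out after their values were seen, and no test is attached to them. Between treatments, mt-Th differed by -1.13 (SE 0.63) log2 units in donepezil against saline, which did not pass (limma, Benjamini-Hochberg adjusted p = 0.416).

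**Figure D3:**
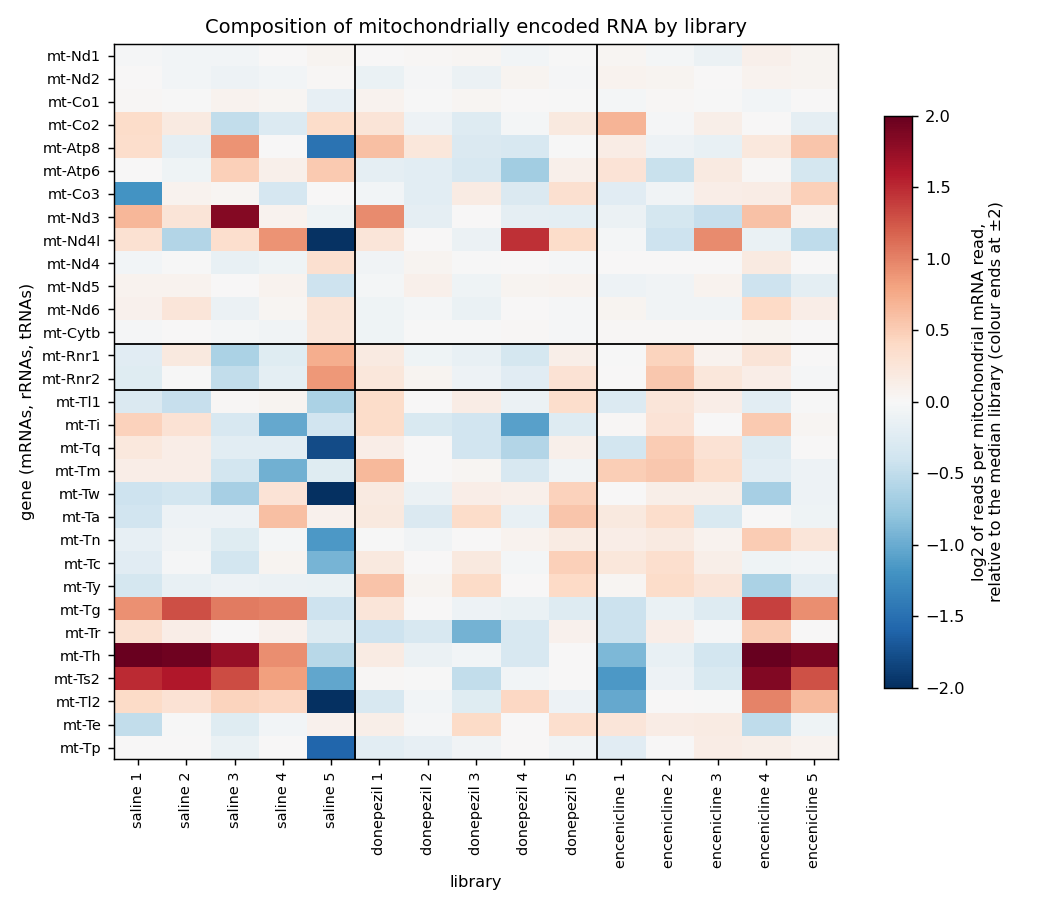
Reads per mitochondrial mRNA read relative to the median library (log2, colour ends at ±2) for the 31 genes with reads in every library. Columns are the 15 libraries in 3 groups, and rows are mRNAs, rRNAs and tRNAs. Saline 5 has low mt-Nd4l, mt-Tw, mt-Tl2 and mt-Tp, and mt-Th and mt-Ts2 are high in saline 1 to 4 and encenicline 4 and 5.

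No mitochondrially encoded gene passed in any of the 3 treatment comparisons. All 13 mRNAs, both rRNAs and 21 of 22 tRNAs passed the filter (0.5 FPKM or more in 5 or more libraries), mt-Tf being the exception. They were tested in a linear model on log2(FPKM + 0.5) fitted to 13396 genes (limma, Benjamini-Hochberg adjusted over these genes, called at an adjusted p under 0.05). Fold changes are on that log2 scale, which understates changes of low genes. Donepezil against saline called 284 of the 13396 genes (2.12%) and 0 of the 36 members. Encenicline against saline called 0 genes (0%), with 1235 at an unadjusted p under 0.05 and 0 by limma voom on the recovered reads. Encenicline against donepezil called 125 (0.933%) and again 0 members. Beside these calls, unadjusted p fell under 0.05 for 4, 6 and 1 of the 36 members, against 16.1%, 9.22% and 15.0% of all genes tested. Only 1 member had groups without overlap, mt-Tp in encenicline against saline, where 1.69% of all genes tested did. In the comparisons with the donepezil group it was 0 members each, with 3.9% and 4.07% of all genes tested against saline and against encenicline.

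With encenicline, the mRNAs lay somewhat above saline. Of 13, 11 were higher, with a median log2 fold change of 0.26, against 0.00425 over all 13396 genes, and none passed. The median was 0.17 without encenicline 1, 0.16 with the groups of the treatment field, 0.15 with voom and 0.093 with TPM. mt-Nd2 differed by 0.32 (SE 0.17), mt-Nd4 by 0.27 (SE 0.17), mt-Nd1 by 0.26 (SE 0.20), mt-Cytb by 0.24 (SE 0.18) and mt-Co1 by 0.23 (SE 0.21). The lowest adjusted p among them was that of mt-Co3, at 0.61 (SE 0.25) (limma, Benjamini-Hochberg adjusted p = 0.523). mt-Co3 stood at 1678, 3848, 3321, 3106 and 3089 FPKM in saline 1 to 5 and 4242, 3822, 3937, 4466 and 6044 in encenicline 1 to 5, with saline 1 far below the rest and saline 2 inside the encenicline range. mt-Atp6, at -0.03 (SE 0.25), and mt-Nd3, at -0.37 (SE 0.36), were the 2 mRNAs on the lower side. The rRNAs mt-Rnr1 and mt-Rnr2 differed by 0.43 (SE 0.25) and 0.42 (SE 0.25), with a median that was 0.26 without saline 3 and 0.26 with TPM. The 95% interval of mt-Co1, -0.22 to 0.67, gives the range of changes that these libraries leave possible. Cardiomyocyte markers lay the same way, 10 of 11 higher with a median of 0.14, and summed to 19436 to 26063 FPKM in saline and 22944 to 28656 in encenicline. Erythroid markers (globins and Alas2) lay the other way, 5 of 5 lower with a median of -1.004, and summed to 120.0 to 729.5 and 105 to 263 FPKM. All 5 had an unadjusted limma p under 0.05. The other marker lists also had medians below 0. These were -0.54 over 8 fibroblast, -0.34 over 3 atrial, -0.21 over 7 macrophage, -0.12 over 5 smooth muscle and pericyte and -0.09 over 7 endothelial genes. None of these lists had a gene that passed, and their part in the mitochondrial values was not tested.

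The tRNAs were also mostly higher with encenicline, 18 of 21, with a median of 0.60, but none passed. mt-Tn, the asparagine tRNA, had the smallest p, at 0.79 (SE 0.24) (limma, Benjamini-Hochberg adjusted p = 0.499). mt-Tp stood at 2536, 2400.3, 1945, 2566 and 676 FPKM in saline 1 to 5 and 2807, 2644, 2609, 2868 and 2973 in encenicline 1 to 5. Its lowest encenicline library lay just above its highest saline library, and the log2 fold change was 0.60 (SE 0.29) (limma, Benjamini-Hochberg adjusted p = 0.540). mt-Tc differed by 0.64 (SE 0.26), mt-Te by 0.37 (SE 0.21), mt-Ty by 0.37 (SE 0.22) and mt-Tl1 by 0.47 (SE 0.22). Without saline 5 the median over the tRNAs was 0.33.

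With donepezil the mRNAs were closer to saline. Of 13, 10 were higher, with a median of 0.13 against -0.00155 over all genes, and log2 fold changes ran from -0.33 in mt-Nd3 to 0.74 in mt-Nd4l. The median was 0.28 without donepezil 4, 0.078 without saline 3, 0.076 without donepezil 2, 0.082 without donepezil 5, 0.067 with voom and 0.046 with TPM. mt-Nd4l spanned 261 to 2439 FPKM within saline alone. mt-Co1 differed by 0.17 (SE 0.21), mt-Nd5 by 0.20 (SE 0.20) and mt-Nd6 by -0.02 (SE 0.18). Of the tRNAs 16 of 21 were higher, with a median of 0.35 that fell to 0.02 without saline 5. mt-Ty, the tyrosine tRNA, stood at 849.7, 931, 847, 1018 and 797 FPKM in saline 1 to 5 and 1657, 1393, 1516, 729.6 and 1646 in donepezil 1 to 5. Donepezil 4 was the lowest of all 10 and the other 4 donepezil libraries lay above every saline library. Its log2 fold change of 0.59 (SE 0.22) did not pass (limma, Benjamini-Hochberg adjusted p = 0.189), nor did that of mt-Tl1, 0.55 (SE 0.22) (limma, Benjamini-Hochberg adjusted p = 0.212). Without donepezil 4 both passed, at 0.81 (adjusted p = 0.0203) and 0.76 (adjusted p = 0.0217) by the same limma test. That fit called 408 genes in all in donepezil against saline, against 284 with all libraries.

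Encenicline and donepezil were compared with each other as well. Of the 13 mRNAs 10 were higher with encenicline, with log2 fold changes from -0.32 in mt-Nd4l to 0.30 in mt-Atp6 and a median of 0.14. The median was -0.013 without donepezil 4, -0.0030 with the groups of the treatment field, 0.23 without donepezil 2, 0.078 without encenicline 1 and 0.091 without encenicline 5. It was 0.095 with voom, 0.058 with TPM and 0.078 without donepezil 1 and encenicline 1. The smallest p of the members was that of mt-Tr, the arginine tRNA, at 0.51 (SE 0.22) (limma, Benjamini-Hochberg adjusted p = 0.292).

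**Figure D4:**
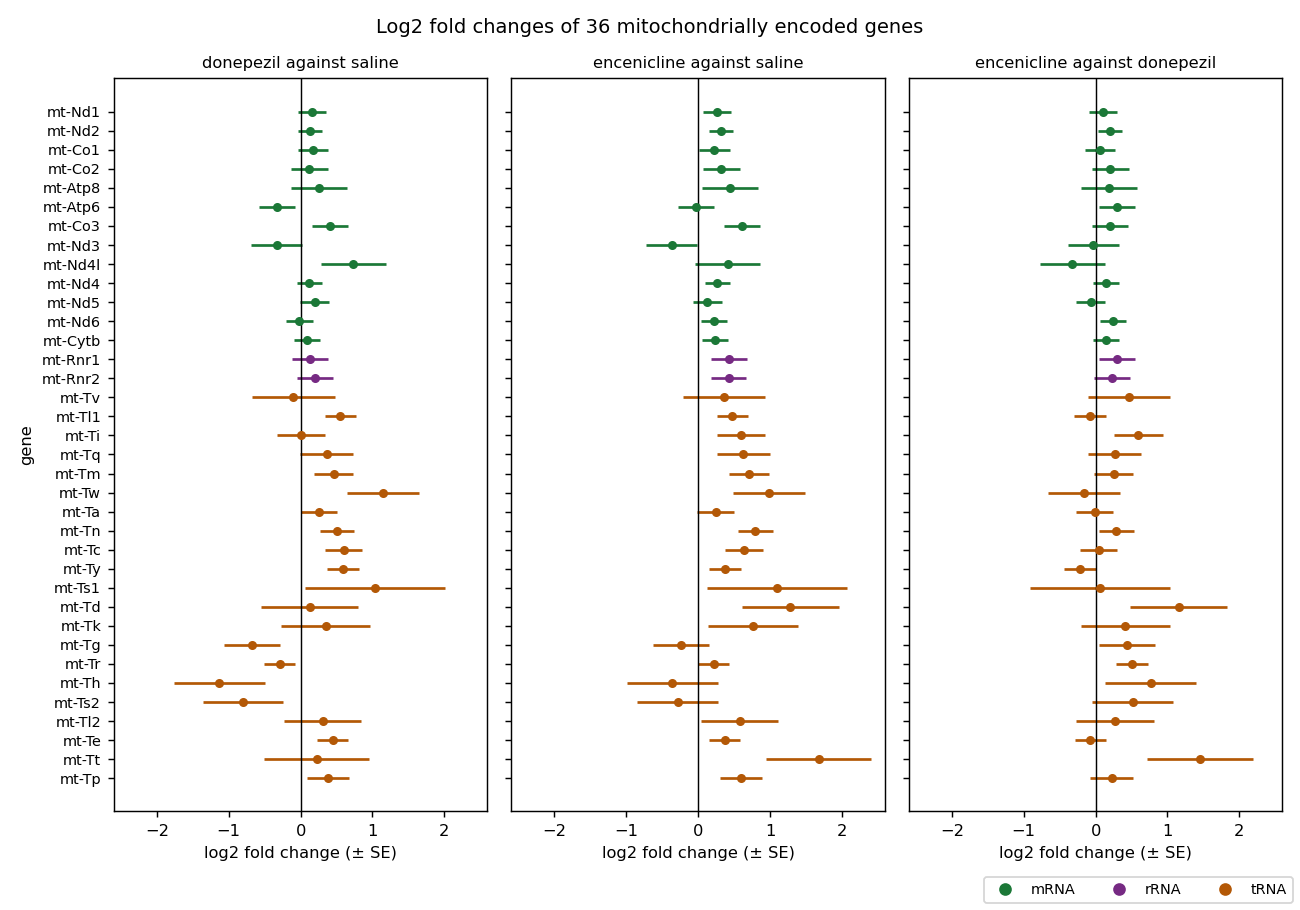
Log2 fold changes with SE of the 36 mitochondrially encoded genes tested, in 3 comparisons of 5 against 5 libraries (values above 0 mean more in the group named first). Green marks mRNAs, purple rRNAs and orange tRNAs. Most points lie to the right of 0 in encenicline against saline, mt-Th is at -1.13 in donepezil against saline, and none passed at an adjusted p under 0.05.

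Complexes I, III, IV and V join mitochondrial with nuclear subunits, so the nuclear partners were set beside them. In encenicline against saline the nuclear subunits of the 4 complexes (36, 9, 13 and 18 genes) had median log2 fold changes of 0.18, 0.17, 0.17 and 0.19, and the mitochondrial ones (7, 1, 3 and 2 genes) of 0.26, 0.24, 0.33 and 0.21. The 4 nuclear subunits of complex II, which has no mitochondrial member, had 0.18. The mitochondrial medians rest on few genes. That of complex IV is the value of mt-Co2, and that of complex V lies between mt-Atp8 at 0.45 and mt-Atp6 at -0.03. In donepezil against saline the nuclear medians were -0.08, -0.07, -0.07 and -0.06 and the mitochondrial ones 0.13, 0.09, 0.17 and -0.03, so nuclear and mitochondrial genes of complexes I, III and IV lay on opposite sides of 0. The nuclear medians of complexes I, III, IV and V turned to 0.05, 0.03, 0.06 and 0.07 without donepezil 4, the library lowest in cardiomyocyte markers. With the groups of the treatment field those of complexes III and V were 0.027 and 0.017, and without saline 5 those of complexes IV and V were 0.024 and 0.015. In encenicline against donepezil the nuclear medians were 0.24, 0.27, 0.24 and 0.25 and the mitochondrial ones 0.10, 0.14, 0.20 and 0.24, and cardiomyocyte markers were 11 of 11 higher with a median of 0.25. None of these 80 nuclear genes passed in any comparison. Those with the smallest p in encenicline against saline included Ndufa3 at 0.42 (SE 0.16) and Ndufab1 at 0.32 (SE 0.13) of complex I, Uqcrb at 0.29 (SE 0.15) of complex III, Cox7a1 at 0.41 (SE 0.19) of complex IV, Atp5b at 0.22 (SE 0.13) of complex V and Sdha at 0.31 (SE 0.14) of complex II.

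Of nuclear genes that make, process and translate mitochondrial RNA, 1 passed. Mrm1, an enzyme that methylates the large mitochondrial rRNA, fell by 0.59 on the log2 scale with donepezil (SE 0.12, limma, Benjamini-Hochberg adjusted p = 0.0193). It was 1 of 31 genes of RNA processing, modification and decay tested, near the 2.12% of all genes tested that were called in that comparison. It did not pass without saline 2, donepezil 1 or donepezil 3 (limma, Benjamini-Hochberg adjusted p = 0.0553, 0.0510 and 0.0544), nor without donepezil 1 and encenicline 1 together (limma, Benjamini-Hochberg adjusted p = 0.0603). None passed of 18 genes of mitochondrial DNA transcription and copy control, 13 translation factors or 14 regulators of biogenesis in any comparison. In donepezil against saline the smallest p of each of these lists belonged to Tfb2m, a factor that opens the mitochondrial promoters at 0.27 (SE 0.11), Sirt1, a deacetylase at 0.28 (SE 0.09), and Tsfm, an elongation factor at -0.22 (SE 0.11). In encenicline against saline they were Ssbp1, which binds single-stranded mitochondrial DNA at 0.19 (SE 0.10), Esrrb, an orphan nuclear receptor at 0.27 (SE 0.11), and Mtrf1, a release factor at 0.19 (SE 0.11). The median log2 fold changes of these 4 lists lay between -0.09 and 0.13, and with scaling to TPM all 4 medians in encenicline against saline turned negative, at -0.12 to -0.07, where the median of all genes was -0.13.

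Across the 15 libraries, mitochondrial mRNA reads per nuclear read were set against 6 nuclear genes, with permutation p adjusted over the 6. Pearson's r was 0.57 with Tfb2m (permutation p = 0.0252, adjusted p = 0.0812) and Spearman's rho 0.60 (permutation p = 0.0217, adjusted p = 0.130). It was 0.53 with Tfam, which packages and activates mitochondrial DNA (permutation p = 0.0428, adjusted p = 0.0812, rho 0.22, permutation p = 0.421, adjusted p = 0.632). With Lrpprc, which stabilises mitochondrial mRNAs, r was 0.55 (permutation p = 0.0372, adjusted p = 0.0812, rho 0.35, permutation p = 0.207, adjusted p = 0.621). None passed over all libraries. Without the 2 libraries farthest from the median, donepezil 4 and encenicline 1, r was 0.63 with Tfb2m, 0.26 with Tfam and 0.05 with Lrpprc, so the relations with Tfam and Lrpprc rest on those libraries. The relation with Nppa, a gene of hypertrophy, was -0.51 (permutation p = 0.0541, adjusted p = 0.0812, rho -0.26, permutation p = 0.346, adjusted p = 0.632) and turned to 0.18 without them. Polrmt, the mitochondrial RNA polymerase, gave r of -0.04 (permutation p = 0.894, adjusted p = 0.894, rho -0.15, permutation p = 0.583, adjusted p = 0.700). The coactivator Ppargc1a gave r of 0.09 (permutation p = 0.763, adjusted p = 0.894, rho 0.04, permutation p = 0.884, adjusted p = 0.884). Within groups, after centring on the group means, r was 0.65 with Tfb2m, 0.65 with Tfam, 0.57 with Lrpprc and -0.56 with Nppa, with permutation p adjusted over the 6 of 0.0304, 0.0304, 0.0477 and 0.0477. These permutations shuffled all 15 libraries freely and made no allowance for the group means removed, so their p-values are too small. The centred relations are not counted as passing, and were not computed without donepezil 4 and encenicline 1. All these values share the library's read total and its mix of cells.

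The 7 nuclear copies on chromosome 1 took reads worth 1.23 to 2.00% of the mitochondrial mRNA reads of a library. Other nuclear rows that share stretches of 50 bases with mitochondrial genes were not on the list used and are left out. Among them were Gm13340 (38962 reads over the 15 libraries), Gm13341 (2109) and Gm13339 (1290). Gm28661 stood at a median of 0.437 times the FPKM of mt-Co2, Gm10925 at 0.329 times mt-Atp6, Gm10222 at 0.223 times mt-Nd4l and Gm28437 at 0.186 times mt-Co3. Gm28439 and Gm29216, whose mitochondrial genes lie only in part in a copy, stood at 0.0298 times mt-Nd4 and 0.0188 times mt-Co1. Whether these reads came from chromosome 1 or from the organelle cannot be told for the 5 copies with no difference. For Gm28438 and Gm29216 it could be told only from reads that reach the differing base, which lies at one end of the match. Of the 100-base stretches of mt-Nd3, 97.6% also occur in another transcript, so the origin of most Gm28438 reads is open as well.

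Gm28438, which differs from mt-Nd3 at T3C, set 1 library apart. It stood at 108, 106, 74.1, 110.2 and 126 FPKM in saline 1 to 5, 113, 97.2, 99.2, 33.3 and 79.5 in donepezil 1 to 5 and 120.2, 1519, 62.1, 158 and 156 in encenicline 1 to 5. Encenicline 2 had 3.82 times the FPKM of mt-Nd3 in this row, and the other 14 libraries had 0.0505 to 0.340 times. mt-Nd3 itself was at 398 FPKM in encenicline 2, within the 288 to 1465 of the other 14. The neighbouring copies of the same series were not raised alike. Gm10222 had 227 FPKM in that library, within the 80.8 to 437 of the others, and Gm28437 499 within 327 to 1448. Gm28439 had 488 within 201 to 735, and Gm28661 1296 within 693 to 1799. Gm10925 was at its highest there, 1886 FPKM against at most 1309 elsewhere, as was Gm29216, 1909.6 against at most 1899. None of the 7 copies passed in any comparison.

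**Figure D5:**
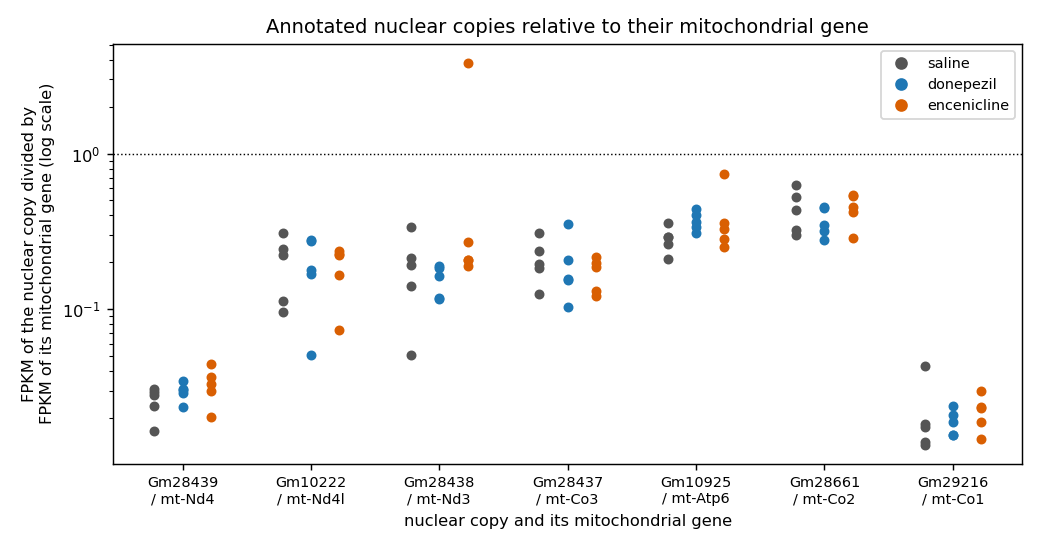
FPKM of each nuclear copy divided by FPKM of its mitochondrial gene (log scale), 1 point per library, coloured by group. The dotted line marks equal FPKM. Gm28438 in encenicline 2 is the single point above the line, at 3.82.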

How the data were processed

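Heart RNA was sequenced in 15 libraries, 5 per group. The deposited table gives FPKM per gene, made by the authors; the submitters' processing notes name HISAT, featureCounts 1.5.0-p3, DESeq 1.8.3 and GRCm38, with neither role nor order. Multiplying FPKM by gene length and dividing by a library constant gave whole reads in 100% of values (tolerance 0.05 reads), and the constant follows a median-ratio size factor, so the deposited FPKM are scaled that way and not to the library's read total. Of the 54532 rows, 13396 with at least 0.5 FPKM in at least 5 libraries were tested on log2(FPKM + 0.5) with limma 3.58.1 (R 4.3.3), lmFit and eBayes with trend, two-sided, 3 contrasts from 1 fit of 15 libraries without a block. Spreadsheet dates in 27 gene symbols were turned back. Recovered totals were 14496147 to 17176086 reads per library. The fit was tested on simulated data. Shares, ratios and correlations used SciPy 1.17.1, and exact binomial intervals (95%) and the floor of 3 reads cover counting error only. Sequences were aligned with Biopython 1.88, from GENCODE vM21 transcripts matched by gene ID.

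The members and gene lists were chosen with earlier results of these data known. Named genes are all mRNAs and rRNAs, the 6 tRNAs with most reads and any called, up to 3 genes of each nuclear list by p, the 6 most and least alike nuclear genes, and, from a set list of nuclear copies, those with at least 100 reads. That list did not hold every nuclear row that shares sequence with mitochondrial genes. mt-Th, mt-Ts2, mt-Tg, mt-Tw, mt-Tl2, mt-Tq, mt-Tr and the near-zero tRNAs were chosen after their values were seen, as was the choice among list members. Alternatives were pseudocounts, filters, scalings, voom, a replicate block, label alternatives and each library left out.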

Additional observations from a re-analysis of the deposited data

Results flagged for a closer look

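A library was picked out where its gap to the nearest library of its group took more than 0.71 of the group's range (Dixon's critical value for 5 samples), and chance does this in about 1 of 20 groups. Of 153 groups of 5 values, 16 met it. Of these, 6 involve saline 3, 4 and 5 among the members: mt-Nd4 at 9641 FPKM in saline 3 (nearest 11992), mt-Cytb at 26069.7 FPKM in saline 3 (nearest 30398), mt-Ta at 122 FPKM in saline 4 (nearest 70.4), mt-Tt at 10.7 FPKM in saline 4 (nearest 2.98), mt-Tl2 at 44.7 FPKM in saline 5 (nearest 414), and the log2 ratio of tRNA to mRNA reads at -8.76 in saline 5 (nearest -8.08). Of the nuclear copies, Gm29216 stood at 1899 FPKM in saline 5 (nearest 1006), Gm10925 at 614 FPKM in donepezil 4 (nearest 1115) and Gm28438 at 1519 FPKM in encenicline 2 (nearest 158). Donepezil 4 was also the low library for mt-Co1, at 41060.0 FPKM in donepezil 4 (nearest 66313), for mt-Ty, at 729.6 FPKM in donepezil 4 (nearest 1393), and for mt-Th, at 45.6 FPKM in donepezil 4 (nearest 87.6). With encenicline, mt-Co2 stood at 6323 FPKM in encenicline 1 (nearest 3172), mt-Co3 at 6044 FPKM in encenicline 5 (nearest 4466), mt-Tt at 25.7 FPKM in encenicline 4 (nearest 8.18) and mt-Tk at 3.92 FPKM in encenicline 4 (nearest 1.15). The mt-Tk flag rests on 4 reads against 1 read in each other encenicline library, so counting error alone could give it.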

How the results depend on the processing

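No mitochondrially encoded gene passed under any alternative run, except 2 tRNAs in donepezil against saline without donepezil 4. With a library left out, 0 to 2 members were called. The 2 were called without donepezil 4, where donepezil against saline called 408 genes in all. None of the 8 summary measures passed under any alternative either. With a replicate block none of these measures could pass, because the smallest sign-flip p that 5 pairs allow is above 0.05. The block tests of the measures therefore decide nothing. Over all 468 alternative share and ratio tests, block tests included, the smallest adjusted p was 0.152. The count of all genes called in donepezil against saline was 284 (158 higher, 126 lower), and 119 with no filter, 160 (55 higher, 105 lower) with TPM, 87 without donepezil 1 and encenicline 1, 0 with the groups of the treatment field and 105 to 408 with a library left out, with 105 without donepezil 1, 131 and 138 without saline 2 and 4 and 144 and 148 without donepezil 3 and 2. In encenicline against donepezil it was 125 (59 higher, 66 lower), and 46, 53 (17 higher, 36 lower), 27 and 0 under those settings and 48 to 178 with a library left out (48, 57 and 67 without encenicline 2, 5 and 4, and 51 and 73 without donepezil 1 and 2). Scaling without the mitochondrial rows gave 124 higher and 150 lower in donepezil against saline and voom 106 and 173. Encenicline against saline called 0 to 1 genes with a library left out (1 without donepezil 4). With TPM the median of all genes was -0.13 in encenicline against saline, and the mRNA median there was 0.09, still above it. The cause of these changes was not tested.

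Without donepezil 1 and encenicline 1, encenicline minus donepezil turned to -0.0941 points for all mitochondrial genes and -0.224 for mRNAs, rRNA to mRNA in donepezil against saline to -0.0084 and mt-Rnr2 to mt-Rnr1 in encenicline against saline to 0.00055. By the treatment field, the first 2 were -0.876 and -0.976 points, tRNAs -0.00153 points, rRNA to mRNA -0.042, mt-Nd6 to the other mRNAs in encenicline against saline 0.026 and the log2 fold change of mt-Nd6 in donepezil against saline 0.077. On summed FPKM, tRNA to mRNA in encenicline against donepezil was -0.0060, and with TPM mt-Nd5 in encenicline against saline was -0.036. Centred on group means, r was 0.65 with Tfam, 0.65 with Tfb2m, 0.57 with Lrpprc, -0.56 with Nppa and 0.11 with Polrmt, and without the 2 farthest libraries 0.18 with Nppa. The first 4 then had an adjusted permutation p under 0.05, with no allowance for the group means removed, so they are not counted as passing.

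With a library left out, encenicline minus donepezil ran from -0.748 to 1.46 points for all genes, -0.762 to 1.33 for mRNAs and -0.00523 to 0.00737 for tRNAs, and tRNA to mRNA from -0.030 to 0.053. Donepezil minus saline ran from -0.00706 to 0.170 points for rRNA and -0.089 to 0.25 for rRNA to mRNA. Encenicline minus saline ran from -0.057 to 0.035 for mt-Rnr2 to mt-Rnr1 and -0.094 to 0.028 for mt-Nd6. Log2 fold changes that changed sign ran, in donepezil against saline, from -0.10 to 0.12 for mt-Nd6, -0.043 to 0.28 for mt-Co2, -0.14 to 0.50 for mt-Atp8 and -0.056 to 0.35 for mt-Rnr1, and in encenicline against saline from -0.012 to 0.21 for mt-Nd5, -0.18 to 0.081 for mt-Atp6 and -0.079 to 0.73 for mt-Nd4l. Mrm1 ran from -0.66 to -0.51 and did not pass in 3 of 15 such fits, nor with no filter (adjusted p = 0.0540) or by the treatment field (adjusted p = 0.418).

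The title numbers 1 to 5 did not pair the libraries: same-numbered libraries had correlations of their deviations from -0.0873 to 0.195, and 4 of 15 correlated best with their own number. With a replicate block, 298, 0 and 114 genes were called and 0 members in donepezil against saline, encenicline against saline and encenicline against donepezil, and the exact sign-flip p of the tRNA to mRNA ratio in encenicline against saline was 0.0625, the smallest that 5 pairs allow.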

Other observations

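10212 nuclear protein-coding genes averaged 1 FPKM or more, and those whose level over the 15 libraries was most like mitochondrial mRNA reads per nuclear read (Spearman's rho, a description with no test, the points sharing the library's total and cell mix) were Lrrc39 (0.93), a protein of the muscle sarcomere, Acat1 (0.93), a mitochondrial thiolase of ketone use, Mrpl50 (0.92), of the mitochondrial ribosome, Ttc19 (0.91), a complex III assembly factor, Dram2 (0.90), a lysosomal membrane protein, and Ghitm (0.89), of the inner mitochondrial membrane. Acat1 ran from 135 to 231 FPKM, rescaled to reads outside the mitochondrial genome. The 6 most opposed were Tmem184b (-0.94), Nfkb1 (-0.91), a subunit of the inflammatory factor NF-κB, Crtc3 (-0.90), a CREB coactivator, Cabin1 (-0.89), a calcineurin inhibitor, Arhgap17 (-0.89) and Grn (-0.88), progranulin, a lysosomal protein of macrophages and other cells. Grn ran from 31.9 to 60.4 FPKM on the same scale.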
